A study of Mus musculus with 2 samples.

Results

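The genes described here encode the enzymes and regulators of cholesterol and fatty acid synthesis, measured in mouse skin wounds with and without beta-catenin in the epidermis. They were chosen by name: 38 gene symbols were listed, and every probe carrying one of them was taken. Of these, 31 genes had 44 probes among the 25697 probes of the table, and 28 genes were detected on at least 1 array.

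The series has 2 samples, each 1 Illumina bead array of total RNA pooled from the wounded skin of 3 mice, per the series' design text, so a difference between the arrays has no replicate error and no test was possible. The knockout sample (BKO) came from b-catenin fl/fl mice in which Cre driven by K14, the promoter of a basal keratinocyte keratin, deletes the gene. The control sample (CON) came from littermates labelled b-catenin fl/fl, with no Cre named. All mice were C57BL6, 3 months old and labelled as on a low calcium diet. Each received 2 full-thickness back wounds of 6 mm, which were excised with an 8-mm punch after 3 days, so the RNA also comes from dermis, fat, muscle, blood and immune cells, which do not express K14. In such bulk RNA, fewer cells of a type and less RNA per cell cannot be told apart.

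Mammalian cells build cholesterol from acetyl-CoA through mevalonate, farnesyl diphosphate, squalene and lanosterol, and build palmitate from the same precursor before lengthening and desaturating it. Transcription of both pathways is driven by the sterol regulatory element binding proteins (SREBPs), which are held in the endoplasmic reticulum by Insig proteins when sterol is plentiful and escorted to the Golgi by Scap when it is scarce. In skin, keratinocytes make cholesterol, fatty acids and ceramides for the permeability barrier, and sebaceous glands make sebum lipids with their own elongases and desaturases.

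Promoter sequences are shown for the sterol enzymes because these are textbook SREBP targets and because they did not all differ in one direction between the arrays. RefSeq windows of mouse build GRCm38.p6, running from 250 bases before to 50 bases after a gene's start, were found for 24 of the 31 genes (33 windows). The motifs searched, on both strands, were TCACNNCAC, a loose form of the sterol regulatory element, and CCAAT, the NF-Y box that often lies beside it. TCACNNCAC stood in 4 of the 33 windows (12.1%) and in 3.77% of all 32851 windows. CCAAT stood in 22 of the 33 windows (66.7%) and in 37.4% of all windows. The windows below are those of the 4 genes with TCACNNCAC, Hmgcs1 (chr13:119690101-119690400, plus strand), Hsd17b7 (chr1:169969156-169969455, minus strand), Sc4mol (chr8:64733529-64733828, minus strand) and Dhcr7 (chr7:143823149-143823448, plus strand, one of 3 windows of that gene), and of Cyp51 (chr5:4104648-4104947, minus strand), the sterol enzyme with the highest fold. They are written along the gene's strand, with the letters of either motif in capitals; in the Sc4mol window 1 base belongs to both motifs.
Hmgcs1: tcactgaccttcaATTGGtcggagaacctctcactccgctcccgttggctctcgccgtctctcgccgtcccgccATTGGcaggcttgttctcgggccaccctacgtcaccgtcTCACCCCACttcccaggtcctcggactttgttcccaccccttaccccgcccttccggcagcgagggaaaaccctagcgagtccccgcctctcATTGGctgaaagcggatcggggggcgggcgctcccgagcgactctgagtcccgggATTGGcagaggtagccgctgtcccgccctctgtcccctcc
Hsd17b7: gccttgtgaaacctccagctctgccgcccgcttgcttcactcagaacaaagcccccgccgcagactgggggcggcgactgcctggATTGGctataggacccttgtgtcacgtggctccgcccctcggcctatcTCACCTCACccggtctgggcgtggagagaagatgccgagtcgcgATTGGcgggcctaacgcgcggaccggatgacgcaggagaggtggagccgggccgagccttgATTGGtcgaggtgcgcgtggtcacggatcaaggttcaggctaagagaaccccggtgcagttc
Sc4mol: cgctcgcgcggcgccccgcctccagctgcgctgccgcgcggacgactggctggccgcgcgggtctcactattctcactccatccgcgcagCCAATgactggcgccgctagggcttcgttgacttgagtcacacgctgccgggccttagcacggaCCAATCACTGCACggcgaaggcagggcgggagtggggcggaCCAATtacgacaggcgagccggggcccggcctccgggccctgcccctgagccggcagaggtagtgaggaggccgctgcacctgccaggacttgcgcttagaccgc
Dhcr7: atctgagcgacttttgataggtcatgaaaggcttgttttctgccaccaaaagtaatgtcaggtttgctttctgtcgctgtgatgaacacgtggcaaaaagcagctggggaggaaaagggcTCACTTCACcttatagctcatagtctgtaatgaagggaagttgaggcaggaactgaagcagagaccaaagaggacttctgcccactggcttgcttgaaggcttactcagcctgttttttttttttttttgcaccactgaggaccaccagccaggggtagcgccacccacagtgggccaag
Cyp51: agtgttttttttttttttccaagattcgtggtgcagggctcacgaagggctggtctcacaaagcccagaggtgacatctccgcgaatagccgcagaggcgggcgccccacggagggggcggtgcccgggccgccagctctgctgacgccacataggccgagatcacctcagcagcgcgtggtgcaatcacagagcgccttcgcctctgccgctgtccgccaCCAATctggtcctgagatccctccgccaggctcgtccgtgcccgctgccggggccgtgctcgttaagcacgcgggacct
A match is a description of letters only, and binding was not measured. Of the 4 genes with TCACNNCAC, Hmgcs1 (log2 fold -0.23), Hsd17b7 (-0.49) and Sc4mol (-0.30) read lower in BKO and Dhcr7 (0.39) read higher; Cyp51 (0.42), with 1 CCAAT and no TCACNNCAC in this window, read higher too.

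Values below are normalized probe intensities, background-corrected and quantile-normalized, given as BKO against CON, and log2 folds are BKO over CON. Raw intensities ran from 120.4 to 40969.4 on the BKO array and from 118.5 to 40798.1 on the CON array, and a probe counted as detected at a raw intensity of at least 177.9 in BKO or 181.8 in CON. The skin markers Krt14 (35204 against 33908) and Krt10 were bright on both arrays. The brighter Ctnnb1 probe read 2344 in BKO and 2325 in CON and the other 932 against 1048; where they lie relative to the deleted part is not known here, so they check nothing about the labels. Across the 9710 detected genes the median log2 fold was 0.00 and the quartiles were -0.19 and 0.18.

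Most lipid synthesis genes differed by less than 1.5-fold between the arrays. The median absolute log2 fold of the 28 detected genes was 0.28, against 0.19 over all detected genes. Of 28 detected genes, 18 lay above 0 and 10 below (64.3% above, against 50.5% of all detected genes), and their median log2 fold was 0.08. Under median scaling in place of quantile normalization 14 of the 28 lay above 0, against 34.5% of all detected genes, and the medians were 0.00 for the 28 and -0.10 for all detected genes. At least 1.5-fold higher in BKO were 3 of the 28 (10.7%), Elovl3, Scd2 and Fads2, where 3.52% of all detected genes passed the same fold. None was at least 1.5-fold lower, where 4.48% of all detected genes were. With so few genes these shares do not set the members apart from the background, and Fads2 passed the detection filter through BKO alone and has a bound of 1.45-fold, which leaves 2 genes among those detected on both arrays. At a smaller difference, 0.32 on the log2 scale, 8 of the 28 were higher (28.6%, against 12.8% of all detected genes). Only 1 was lower (3.57%, against 14.9%), which left 19 of the 28 (67.9%) closer to 0. Pmvk, at -0.32, lay just inside that limit. This balance rests on quantile normalization. Under median scaling Cyp51 (0.28), Ebp (0.20) and Dhcr7 (0.25) fell inside the limit. Pmvk (-0.46), Sc4mol (-0.36), Srebf1 (-0.36), Insig2 (-0.335), Elovl5 (-0.37) and Elovl6 (-0.39) then passed it on the lower side. The normalized values deposited by the authors still hold the background; on that scale 1 of the 28 (Elovl3) was at least 1.5-fold higher, where 0.566% of all detected genes were, and none was 1.5-fold lower, where 0.772% were. At the smaller difference 4 of the 28 were higher on that scale, against 4.05% of all detected genes, and 1 was lower, against 6.04%.

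**Figure D1:**
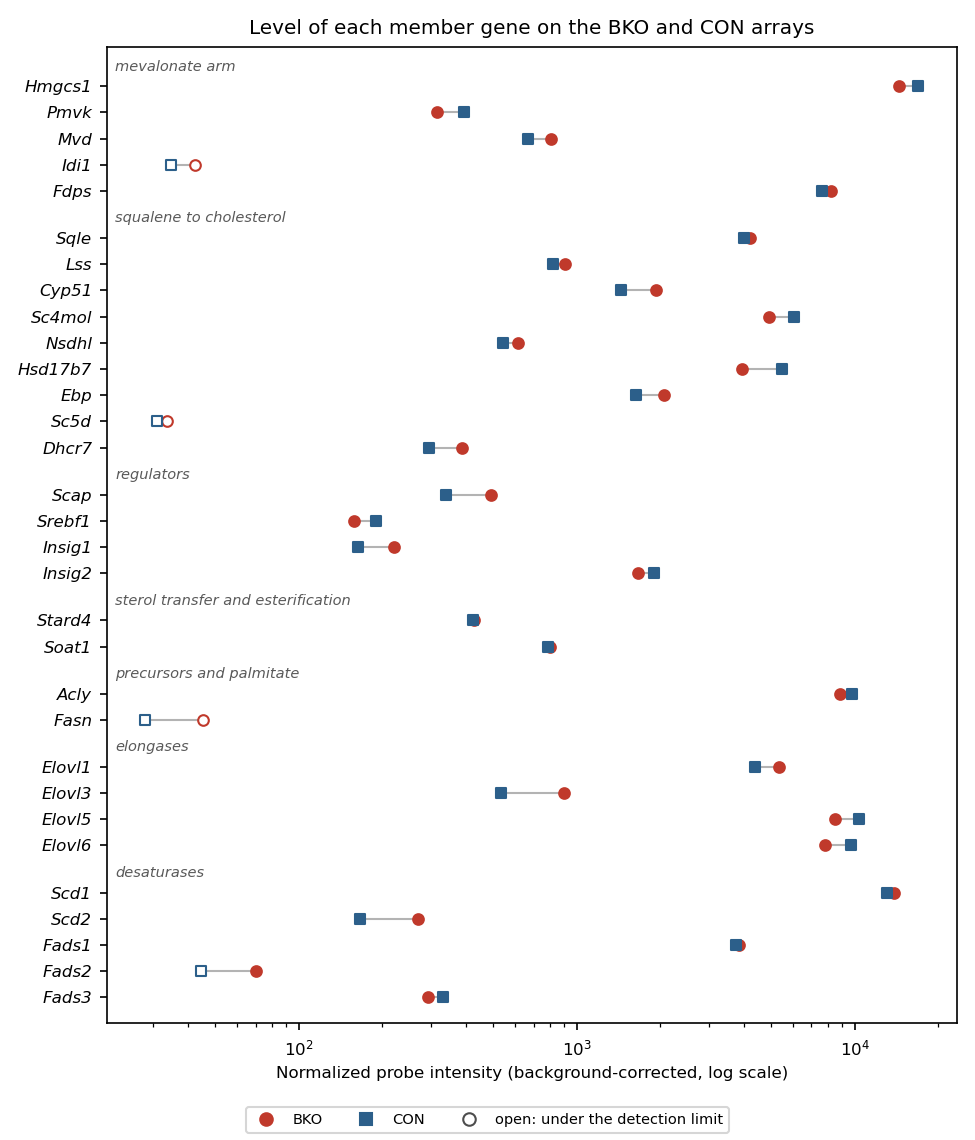
Normalized intensity of the brightest probe of each of the 31 genes (log axis) on the BKO array (circles) and the CON array (squares), grouped by role; open symbols are under the detection limit. Points should be compared within a row only, since probes differ in brightness; the widest gaps among detected genes are those of Elovl3, Scd2 and Fads2.

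In the mevalonate arm, which makes the isoprenoid precursors, 4 of 5 genes were detected and they stood on both sides of 0. Hmgcs1, the cytosolic HMG-CoA synthase that begins the arm, read 14447 in BKO and 16966 in CON (log2 fold -0.23). Pmvk, the phosphomevalonate kinase, read 315.1 against 393.8 (-0.32). Both were thus lower in BKO. Mvd, the decarboxylase that makes isopentenyl diphosphate, was higher at 809.4 against 671.0 (0.27). Fdps, the farnesyl diphosphate synthase at the branch towards sterols and prenylated proteins, was nearly equal at 8216 against 7653 (0.10). Idi1, the isopentenyl diphosphate isomerase, was under the detection limit on both arrays, with raw intensities of 171.4 and 165.8.

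From squalene to cholesterol, 8 of 9 genes were detected, 6 of them above 0 and 2 below, with a median log2 fold of 0.16. Sqle, the squalene epoxidase and a control point of the pathway, read 4219 in BKO and 3997 in CON (0.08), and its second probe stood at 0.25. Lss, which closes the ring to lanosterol, read 905.7 against 822.0 (0.14). Cyp51, the lanosterol demethylase, had the highest fold of the sterol enzymes at 1925 against 1440.1, a 1.34-fold difference (log2 fold 0.42, above 92.3% of detected genes). Towards the end of the pathway, Ebp, the sterol isomerase, read 2065 against 1629 (0.34). Dhcr7, the reductase that yields cholesterol, read 387.8 against 295.5 (0.39). Each of these enzymes was thus higher in BKO, none by 1.5-fold, though Lss stood at -0.00 under median scaling. Sc5d, the sterol desaturase, was not detected (raw 162.1 against 160.9).

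The 3 enzymes that act together to remove the methyl groups from carbon 4 of the sterol ring stood on both sides of 0. Hsd17b7, the ketoreductase of this step and also an estrone-reducing enzyme, was the lowest of all detected members: it read 3919.8 in BKO and 5489.5 in CON, 1.40-fold lower, with raw intensities of 3798.1 and 5936.1. Its log2 fold of -0.49 lay above that of 7.02% of detected genes, and it was -0.48 in the authors' normalized intensities. Sc4mol, the methylsterol oxidase now named Msmo1, was lower as well, at 4932 against 6077 (-0.30). Nsdhl, the decarboxylating dehydrogenase between them, read 616.0 against 544.8 (0.18), and its 4 probes lay between 0.11 and 0.24. Under median scaling in place of quantile normalization 1 of these 4 probes stood at -0.03.

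The regulators of SREBP split by gene. Scap, the escort protein, read 490.9 in BKO and 338.8 in CON (log2 fold 0.54), 1.45-fold higher, with 4.25% of detected genes above it. Its log2 fold was smaller in the authors' normalized intensities (0.414), without background correction (0.405) and under median scaling (0.41). Insig1, itself a well-known SREBP target as well as its retention factor, read 221.0 against 163.2 on its brightest probe (0.44, and 0.25 in the authors' normalized intensities). Its other detected probes stood at 0.43 and 0.11, and the remaining one was under the detection limit. Insig2, the retention factor that is less dependent on SREBP, read 1659 against 1891 (-0.19), but its 3 probes ran from -0.46 to 0.02 and do not give one direction. Srebf1, which encodes the SREBP form linked mainly to fatty acid synthesis, read 158.0 against 189.7 (-0.26) on its only detected probe. Sterol handling hardly differed: Stard4, a cytosolic sterol carrier, read 428.2 against 423.7 (0.02), and Soat1, which esterifies cholesterol, read 804.1 against 791.1 (0.02). Both were below 0 under median scaling (-0.13 and -0.12).

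**Figure D2:**
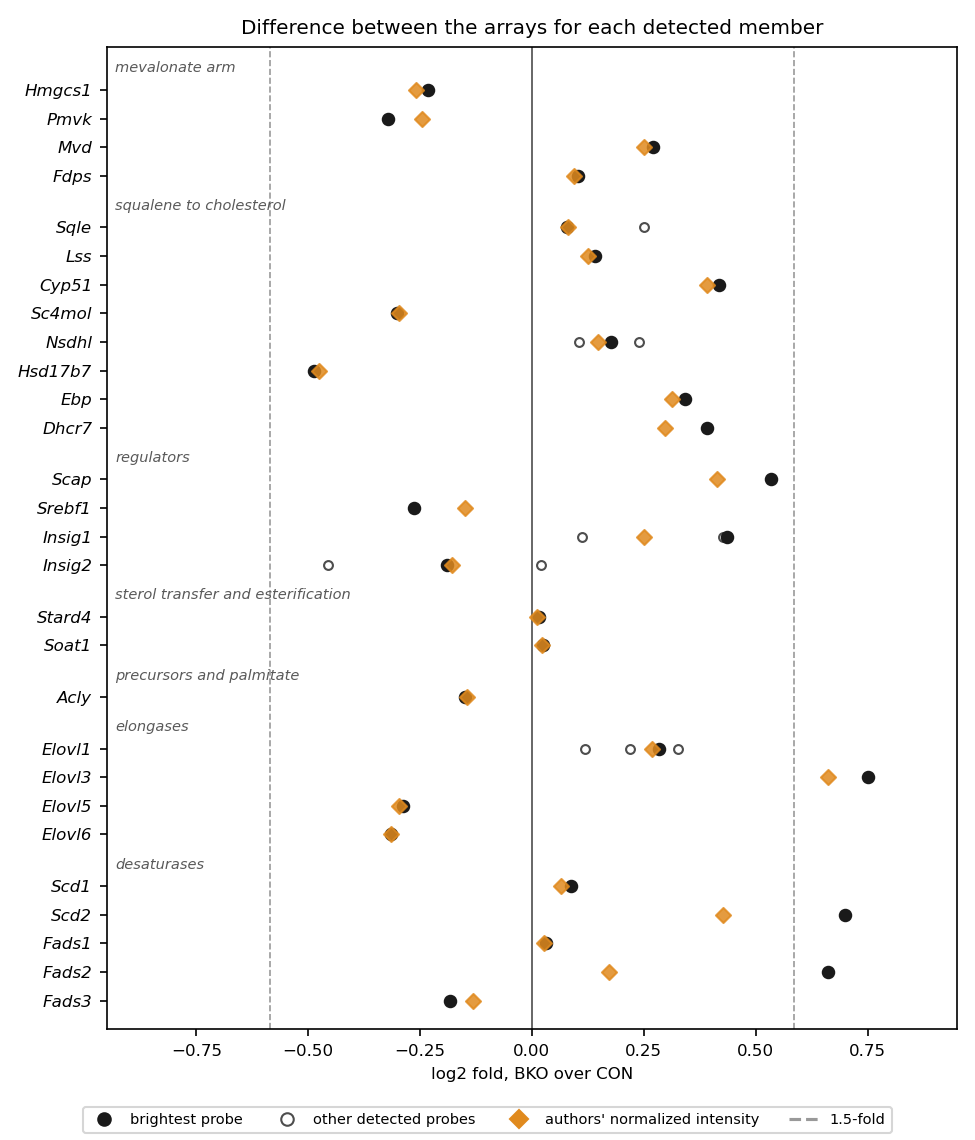
Log2 fold, BKO over CON, of each of the 28 detected genes: filled circles are the brightest probe, open circles other detected probes, diamonds the authors' normalized intensities of the brightest probe, and dashed lines 1.5-fold. Elovl3 is past 1.5-fold on both scales, whereas Scd2 and Fads2 are so only after background correction.

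On the fatty acid side, Acly, which makes cytosolic acetyl-CoA from citrate, read 8845 in BKO and 9806 in CON (-0.15). Fasn, the palmitate synthase, was under the detection limit on both arrays by its single probe (raw 174.4 against 156.1), so its level cannot be compared.

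The 4 elongases differed in direction. Elovl3, an elongase of very long chains expressed in sebaceous glands and hair follicles, had the highest fold of all detected members, 898.7 against 533.9, or 1.68-fold higher in BKO (raw 953.5 against 707.5). Its log2 fold was 0.75, with 1.71% of detected genes above it, and it was 0.66 in the authors' normalized intensities. Elovl1, which lengthens saturated very long chains for barrier ceramides, read 5331 against 4378 (0.28), and its 4 probes lay between 0.12 and 0.33; under median scaling 1 of them stood at -0.01. Elovl5, the elongase of polyunsaturated chains, was lower at 8536 against 10414 (-0.29). Elovl6, which lengthens palmitate to stearate, was lower too, at 7819.7 against 9726 (-0.32).

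Among the desaturases, Scd1, the main stearoyl-CoA desaturase of sebaceous glands, was bright and nearly equal at 13923 in BKO and 13110.5 in CON (0.09). Its paralog Scd2 read 269.7 against 166.0 (0.70), 1.63-fold higher, with raw intensities of 379.2 and 309.0; in the authors' normalized intensities its log2 fold was 0.43. Fads2, a desaturase of the polyunsaturated pathway, was detected in BKO only (raw 196.6 against 177.2). Set against the CON detection limit, its bound was 1.45-fold, which holds for the main normalization alone. Its log2 fold was 0.66 there and 0.41 with an offset of 50. It was 0.20 without background correction and 0.17 in the authors' normalized intensities. Its partner Fads1 read 3838 against 3754 (0.03, and -0.05 under median scaling), and Fads3, the third of this gene cluster, read 291.1 against 330.3 (-0.18).

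The genes were also split at a mean raw intensity of 4000, a limit chosen after the values were seen, so the counts on its sides describe these values and support nothing. Of the 10 genes above it, 6 read lower in BKO (Hmgcs1, Acly, Elovl5, Elovl6, Sc4mol and Hsd17b7) and 4 higher (Scd1, Fdps, Elovl1 and Sqle), with a median log2 fold of -0.19. Of all 876 detected genes above that limit, 51.9% lay above 0 (41.4% under median scaling). The 18 detected genes under it had a median of 0.22, and 14 of them stood above 0 (10 under median scaling, with the split of the bright genes the same). Of all detected genes under that intensity 50.4% lay above 0 (33.8% under median scaling). Summed over the 28 detected genes, the normalized intensity was 96342 in BKO and 102039 in CON, a sum set by the bright probes.

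**Figure D3:**
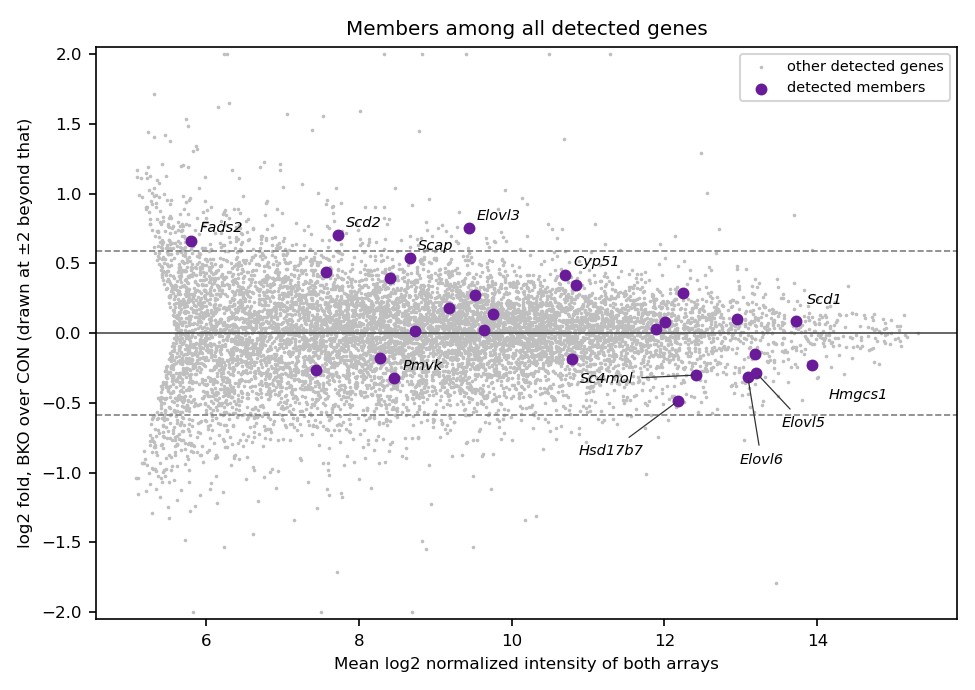
Log2 fold, BKO over CON, against the mean log2 normalized intensity of both arrays for all 9710 detected genes (grey) and the 28 detected members (purple), with dashed lines at 1.5-fold. Hmgcs1, Elovl5, Elovl6 and Hsd17b7 lie below 0, Scd1 and Cyp51 above it, and Elovl3, Scd2 and Fads2 lie above the upper line.

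In all, 7 of the listed genes had no probe under their listed symbol. Matched through RefSeq, 4 of these had 6 probes under an older symbol, and they are given here apart from the counts. Srebf2, the SREBP of cholesterol synthesis (file symbol Srebp2), read 799.2 in BKO and 680.9 in CON (0.23). Acaca, the acetyl-CoA carboxylase that commits carbon to fatty acids (Acac), read 1921 against 1900.1 (0.02). Acss2, which activates acetate (Acas2), read 1960.0 against 2236 (-0.19). Me1, the malic enzyme that supplies NADPH (Mod1), gave opposite values on its 2 probes (0.38 and -0.13). With these 4 added, a choice made after the data were seen, the median stayed at 0.08. Mvk, Fdft1 and Tm7sf2 were not analysed here.

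Related genes, from lists written with earlier results of these data known, were set beside these. In other sterol and isoprenoid synthesis 8 of 10 measured genes were detected, none at least 1.5-fold higher and 1 lower. Above 0 were 7 of the 8 (4 under median scaling), against 50.5% of all detected genes (34.5% under median scaling). The list's median was 0.17, and 0.055 under median scaling, where that of all detected genes was -0.10. Pdss1, which builds the ubiquinone tail, stood at 0.41, and Acat2, the cytosolic thiolase at the start of the pathway, at 0.36. Genes of SREBP processing and degradation (6 of 8 detected) had a median of -0.14 and none past 1.5-fold, with Faf2 at -0.27 and the site-1 protease Mbtps1 and Erlin1 both at -0.25. Sterol uptake, transport and export (16 of 19 detected) had a median of 0.07 and none past 1.5-fold. Its widest values were the HDL receptor Scarb1 (0.47, detected in BKO only, bound 0.29), the lysosomal sterol carrier Stard3 (0.41) and the sterol hydroxylase Cyp27a1 (-0.39).

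Other fatty acid synthesis and elongation genes had a median of -0.06, none past 1.5-fold. Above 0 were 5 of 17 detected genes, against 50.5% of all detected genes, and 5 of 17 under median scaling, against 34.5%. The acyl-CoA synthetase Acsl3 stood at -0.57, G6pdx, the NADPH source of the pentose phosphate pathway, at 0.55, and the mitochondrial transacylase Mcat at 0.38. Hsd17b12, the ketoreductase that works with the elongases and was picked with its value known, read 2772 in BKO and 3436 in CON (-0.31). In the same list, and also picked with values known, Elovl4 stood at -0.03, Gpsn2 at -0.06, Ptpla at -0.16 and Ptplb at -0.31. Triglyceride synthesis (9 of 11 detected) had a median of -0.18 and ran from -0.44 to 0.63, with 1 gene at least 1.5-fold higher: the acyltransferase Agpat3 (152.2 against 98.2, log2 fold 0.63). It was not past 1.5-fold in the authors' normalized intensities (0.29), without background correction (0.31) or under median scaling (0.53). Agpat1 stood at 0.53 and Dgat1, which adds the last acyl chain, at 0.50.

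**Figure D4:**
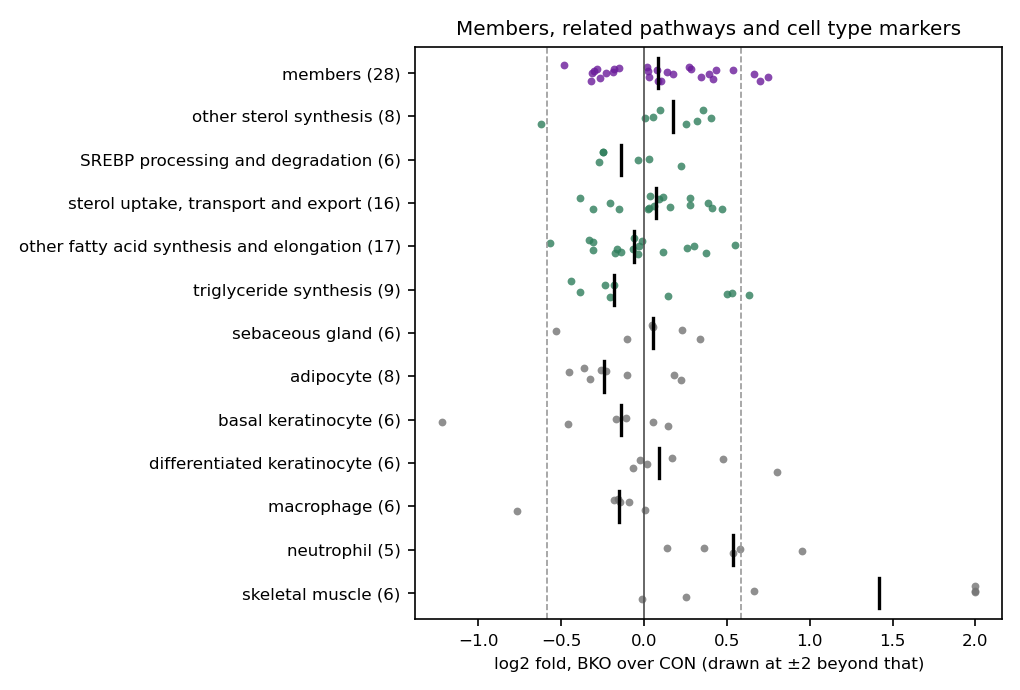
Log2 fold, BKO over CON, of the detected genes in each list (number in brackets), with the median as a black bar and dashed lines at 1.5-fold: the members in purple, related pathways in green, cell type markers in grey. The members and related pathways centre within 0.2 of 0, while neutrophil and skeletal muscle markers lie further to the right.

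Cell types that make these lipids were compared through their markers. Sebaceous gland markers, of interest beside Elovl3 and Scd1, were detected for 6 of 7 measured genes, 4 of them above 0 (3 under median scaling). Their summed normalized intensity was 33051 in BKO and 30389 in CON, and Far2 was under the detection limit. That sum is set mainly by Krt79 (14716 against 12528) and Fa2h (12128 against 11656). Within this list Krt79, a duct keratin, stood at 0.23 and the melanocortin receptor Mc5r at 0.34, while Awat2, the wax synthase of sebum, was lower at 248.1 against 359.2 (-0.53). Adipocyte markers were detected for 8 of 10 genes, 6 of them below 0, with a sum of 35140 in BKO and 38193 in CON; Car3 stood at -0.45 and Adipoq at -0.26, and Fabp4 and Retn were under the detection limit. Basal keratinocyte markers summed to 69556 against 70434 and differentiated keratinocyte markers to 65375 against 64448. Itga6, a basal marker, was detected in CON only (log2 fold -1.22, bound -1.13), and stood at -0.39 in the authors' normalized intensities. Tgm3, a differentiation marker, stood at 0.80, but at 0.26 in the authors' normalized intensities and 0.29 without background correction. Macrophage markers were below 0 in 5 of 6 genes (43518 against 51251), with Mrc1 at -0.77. Neutrophil markers were above 0 in 5 of 5 (51499 against 43055), a sum set mainly by S100a8 (0.14) and S100a9 (0.36). Retnlg stood at 0.54, Mmp9 at 0.58 and Cxcr2 at 0.95. Skeletal muscle markers were above 0 in 5 of 6 (50692 against 38126), but unevenly. Myl2 (5.40), Tnnc1 (2.77) and Tnnt1 (2.17) stood far above 0, Myh4 at 0.67 and Ckm at 0.25. Acta1, the brightest of them, was nearly equal at 30134 against 30373 (-0.01). Each of these sums is weighted towards its brightest probes. The part of these cell types in the lipid gene values was not tested.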

How the data were processed

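The authors deposited 2 tables of probe intensity for the same 25697 probes, 1 without normalization and 1 normalized by a method not given in the sources used here; per the file headers the values are mean bead intensities. The submitters' processing notes name GenomeStudio 2011.1. The value table equals the normalized table at all 25697 probes. The authors also deposited detection p-values, but these are not sorted like the intensities (Spearman's rho across probes -0.000406 in BKO and 0.00244 in CON). Within each array the sorted p-values were therefore given to the sorted intensities, and a probe at or above the lowest intensity with a p-value under 0.01 counted as detected (12425 in BKO, 12488 in CON).

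Normalization of the raw values used limma 3.58.1 (R 4.3.3), function neqc: normexp background correction from the detection values, an offset of 16, quantile normalization and log2. Folds of dim probes shrink through the offset, and a shift of all genes cannot be seen. The procedure was tested on simulated data, with folds planted only in brighter probes. That test therefore does not cover dim probes such as those of Scd2 and Fads2. A gene's value is that of its brightest probe. RefSeq symbols of mouse assembly GRCm38.p6 (25375 probes matched) were used to count genes. With 1 array per group, genes at least 1.5-fold different were counted without a test. Every member is named, and from each related list the 3 detected genes with the largest absolute fold and any past 1.5-fold. Hsd17b12, Elovl4, Gpsn2, Ptpla and Ptplb are named in addition. Some genes of the related lists are not reported here. Members and lists were chosen with earlier results of these data known. Alternatives were the fold of the authors' intensities, median scaling, no background correction, an offset of 50, no detection filter, probe averages and a smaller fold.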

Additional observations from a re-analysis of the deposited data

How the results depend on the processing

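No paired analysis was possible because each group has 1 array. The count of members at least 1.5-fold higher in BKO was 3; it was 1 in the authors' normalized intensities and 1 without background correction, both of which keep the background under dim probes, and between 2 and 4 under the other alternatives at that fold. At a log2 fold of 0.32 in place of 1.5-fold it was 8, and 1 member (Hsd17b7) was lower. Under median scaling Cyp51, Ebp and Dhcr7 fell inside that smaller limit. Pmvk, Sc4mol, Srebf1, Insig2, Elovl5 and Elovl6 passed it there on the lower side. No member was 1.5-fold lower under any alternative run. The median of 0.08 ranged from 0.00 under median scaling, where the median of all detected genes was -0.10, to 0.10 with no detection filter. Of 28 detected members, 4 (Lss, Stard4, Soat1 and Fads1) changed sign under median scaling and none under the other alternatives. Most members (23 of 28) rest on 1 detected probe, and folds of the dim ones, Fads2 above all, are limited by signal over background.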
